A study of Mus musculus with 6 samples.

Results

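Histone protein genes were described in single mouse blastocysts as the genes whose GENCODE M21 symbol begins with Hist1h to Hist4h, H2af, H3f3 or H1f. Of 91 such genes in that annotation, 32 were among the 12149 genes in the deposited table: 21 of 70 replication-dependent genes (Hist symbols) and 11 of 21 variant genes. The other 59 were not analysed here. Each library was 1 whole C57BL/6 blastocyst at embryonic day 3.5. Every zygote had received a microinjection of sperm small RNAs (2 ng/µl) and was then cultured in vitro for about 96 h. For the 3 Ctl embryos the RNAs were taken from normal males, and for the 3 Dep embryos from males made depressive by stress. Neither group was an uninjected control. Parentage, injection day and the number of sperm donors are not in the labels, so p-values measure the spread between these embryos only.

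Histones are the proteins that DNA is wound around. H2A, H2B, H3 and H4 form the core of the nucleosome and H1 binds the linker DNA between nucleosomes. Replication-dependent genes lie in clusters, are transcribed mainly in S phase to package newly made DNA, and give mRNAs that usually end in a conserved stem-loop in place of a poly(A) tail. Variant genes lie alone, mostly carry introns, make polyadenylated mRNA through the cell cycle and supply histones that are deposited outside replication or at particular places. In the early mouse embryo, where cleavage divisions follow each other without much growth, both kinds are needed.

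The listed replication-dependent genes were 5 H1, 8 H2A, 3 H2B, 2 H3 and 3 H4 genes. Of these, 18 lay on chromosome 13, 2 on chromosome 3 and 1 on chromosome 11. Hist1h2aj is annotated as an unprocessed pseudogene and the other 20 as protein-coding. The variants were H2afz, H2afv, H2afx, H2afj, H2afy and H2afy2 of the H2A family, H3f3a and H3f3b with the processed pseudogenes H3f3a-ps1 and H3f3c, and the linker histone gene H1fx.

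The stem-loop was searched in the sense strand of annotated transcripts as a run of 16 letters: GG, 2 free letters, CTTTT, 1 free letter, AG, 2 free letters and CC. It was found in 14 of the 21 listed replication-dependent genes (66.7%), in 44 of all 70 in the annotation, and in 89 of 55450 annotated genes (0.161%). Of the variants only H2afx held it, a gene known to give both a stem-loop mRNA and a polyadenylated one. The windows below are shown because this element was more frequent in the replication-dependent genes and bears on how such mRNAs are primed. Hist1h2bc and Hist1h1b were among the 7 listed replication-dependent genes with no match in an annotated transcript. The transcripts of Hist1h2ai (393 bases) and Hist1h2ah (405 bases) hardly extend beyond their coding sequences of 390 and 384 bases. A missing match in such short models does not show that the gene lacks the element. Each window below has the stem-loop in capitals and 7 flanking bases on either side, in the sense direction.
Hist1h2ag: caacaaaGGCTCTTTTCAGAGCCacctaac
Hist3h2a: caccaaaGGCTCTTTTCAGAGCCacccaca
Hist1h4d: aaccaaaGGCCCTTTTCAGGGCCactacct
Hist1h3e: ccaaaacGGCTCTTTTAAGAGCCacctcca
Hist1h1e: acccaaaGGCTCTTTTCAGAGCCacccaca
H2afx: ccacaaaGGCCCTTTTAAGGGCCaccacct

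In 5 of the 14 genes the annotated transcript ended within 100 bases after the stem-loop, and in the other 9 it ran further. The libraries were made with the SMART-Seq v4 kit, which as background primes cDNA on poly(A). The counts of replication-dependent genes may therefore cover a part of their mRNA only, and what part was not tested.

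Promoters are shown for 3 replication-dependent genes that the values below turn on and for the most abundant variant. They are the 200 bases before the start site in RefSeq on GRCm38.p6, on the gene's strand, with matches to the searched motifs in capitals. Hist1h1b is at chr13:21780626-21780825 (minus strand), Hist1h4d at chr13:23581368-23581567 (plus), Hist3h2a at chr11:58954485-58954684 (plus) and H2afz at chr3:137864287-137864486 (plus).
Hist1h1b: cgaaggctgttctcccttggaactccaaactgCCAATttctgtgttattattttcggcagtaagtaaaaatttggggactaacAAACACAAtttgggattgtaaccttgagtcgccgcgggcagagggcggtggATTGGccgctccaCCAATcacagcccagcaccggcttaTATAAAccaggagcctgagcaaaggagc
Hist1h4d: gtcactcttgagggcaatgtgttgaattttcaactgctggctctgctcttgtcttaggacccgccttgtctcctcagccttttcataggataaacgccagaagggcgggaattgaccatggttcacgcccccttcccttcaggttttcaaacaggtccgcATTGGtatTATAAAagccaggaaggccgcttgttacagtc
Hist3h2a: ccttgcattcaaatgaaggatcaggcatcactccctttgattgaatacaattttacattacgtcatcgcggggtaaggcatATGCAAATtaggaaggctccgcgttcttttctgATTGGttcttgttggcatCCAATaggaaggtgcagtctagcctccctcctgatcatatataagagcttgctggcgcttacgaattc
H2afz: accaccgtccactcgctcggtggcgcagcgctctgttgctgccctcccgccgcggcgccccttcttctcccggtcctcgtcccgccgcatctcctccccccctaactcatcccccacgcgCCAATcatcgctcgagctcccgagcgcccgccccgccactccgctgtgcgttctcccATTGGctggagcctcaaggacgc

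The motifs were the CCAAT box (CCAAT), the TATA box (TATAAA), the octamer bound by POU2F1 (ATTTGCAT) and the H1 box (AAACACAA), each searched on both strands of the 250 bases before the start. RefSeq promoters were matched for 18 replication-dependent and 9 variant genes. CCAAT was present in 16 of the 18 replication-dependent promoters (88.9%), 5 of the 9 variant promoters (55.6%) and 34.5% of all 27025 promoters. TATAAA was present in 10 of 18 (55.6%), 1 of 9 (11.1%) and 13% of all. The octamer was present in 6 of 18 (33.3%), 1 of 9 (11.1%) and 1.61% of all, and the H1 box in 4 of 18 (22.2%), 1 of 9 (11.1%) and 1.67% of all. These are matches of letters and no binding was measured.

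Reads in listed genes came to between 16543356 and 21548220 per embryo. The blastocyst label was checked against 10 markers each of epiblast, primitive endoderm and trophectoderm, all of which were listed. Dep 1 stood apart. No read was counted for 691 of the listed genes in this embryo, compared with 5 to 106 genes elsewhere, with 4 primitive endoderm markers (Foxq1, Gata4, Sox17 and Sox7) and the epiblast marker Fgf4 at 0. The only other marker at 0 in any embryo was Gata4 in Ctl 3.

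Variant genes supplied far more reads than replication-dependent genes in every embryo. They took 0.499%, 0.572% and 0.456% of reads in Ctl 1 to 3 and 0.563%, 0.611% and 0.454% in Dep 1 to 3. Replication-dependent genes took 0.0262%, 0.0237% and 0.0195% in the Ctl embryos and 0.0333%, 0.0325% and 0.0210% in the Dep embryos. Variant reads were thus 16.9 to 24.1 times the replication-dependent reads. This is a ratio of reads and not of mRNA, as poly(A) priming may cover stem-loop mRNAs in part only. It also leaves out the genes not listed, 49 replication-dependent and 10 variant. Group means were 0.0231% ± 0.00336 (SD, n = 3) in Ctl and 0.0289% ± 0.00689 in Dep for replication-dependent genes, and 0.509% ± 0.0585 and 0.543% ± 0.0803 for variants. In both classes Dep 3 lay inside the range of the Ctl embryos or below it, so the groups overlapped. Without Hist1h2bc, replication-dependent shares were 0.0165%, 0.0160% and 0.0121% in Ctl 1 to 3 and 0.0258%, 0.0151% and 0.0155% in Dep 1 to 3. Only Dep 1 then lay above all Ctl embryos, so the high share of Dep 2 rested on that gene. In bulk RNA of a whole embryo, more cells of a type and more RNA per cell cannot be told apart.

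**Figure D1:**
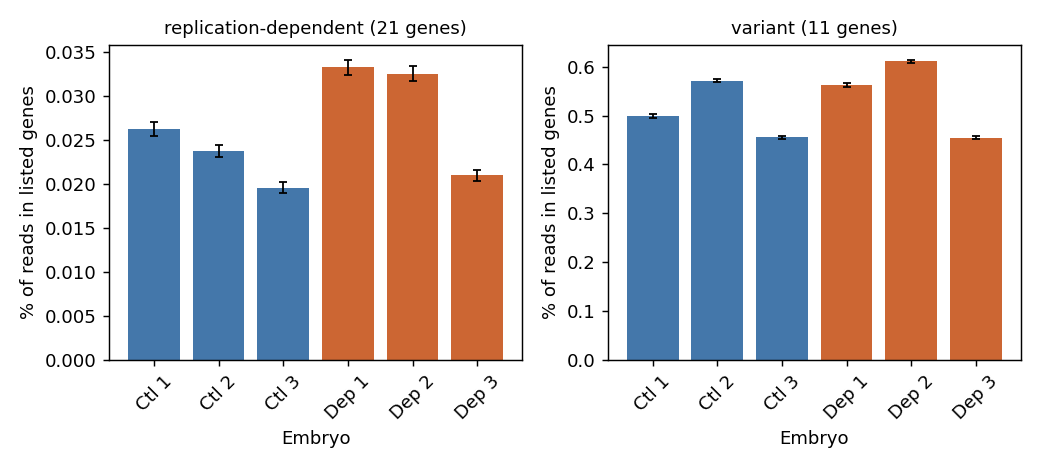
Percent of each embryo's reads in listed genes that fell in replication-dependent (left) and variant (right) histone genes, with 95% Wilson intervals that cover counting error only. Dep 1 and Dep 2 have the highest replication-dependent shares (0.0333% and 0.0325%), and Dep 3 (0.0210%) lies within the Ctl range. Without Hist1h2bc (not drawn), Dep 2 falls to 0.0151% and only Dep 1 (0.0258%) lies above all Ctl embryos.

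Levels were compared between genes as FPKM, reads scaled by the length of merged exons and by the embryo's reads in listed genes, averaged over the 6 embryos. H2afz, which encodes H2A.Z, a variant found at promoters, was highest at 942 ± 169 FPKM (SD, n = 6). H3f3b, one of a pair of genes for the replication-independent H3 variant, followed at 669 ± 151. H2afx, whose product is phosphorylated at DNA breaks, stood at 470 ± 125. This order held within each of 6 embryos, although the ranges of neighbouring genes overlapped. H2afv, the gene of another H2A.Z protein, was at 122 ± 15.8 FPKM, with a range entirely below that of H2afx. H2afj was at 119 ± 17.7 and was not separated from H2afv, each being higher in 3 of 6 embryos.

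Hist1h2bc led the replication-dependent genes at 79.4 ± 36.7 FPKM and held 35.0% of their summed normalized counts. Hist1h2ag followed at 62.8 ± 19.6, then Hist1h2ae at 32.9 ± 8.90, Hist1h4d at 23.6 ± 13.97, Hist1h1b at 21.8 ± 13.0 and Hist1h4i at 18.1 ± 3.73. The variants H3f3a (56.8 ± 12.2) and H2afy (44.7 ± 8.89), which encodes the macroH2A protein with its large extra domain, lay between Hist1h2ag and Hist1h2ae. The remaining 15 replication-dependent genes ranged from 9.15 FPKM for Hist1h1c down to 0.572 for Hist1h1d. The last place of Hist1h1d depends on its annotated exon length of 7425 bases. Its mean of 78.7 normalized counts was above the 52.8 of Hist1h1a, which has 741 bases and 3.89 FPKM. From H2afv downwards the ranges of every neighbouring pair overlapped.

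Paired genes differed in level. H3f3b exceeded H3f3a, which encodes the same protein, by 8.70 to 14.1 times in FPKM, and H2afz exceeded H2afv, which encodes a closely related H2A.Z protein, by 6.15 to 9.16 times. The processed pseudogenes H3f3a-ps1 and H3f3c had mean levels of 15.1 ± 4.13 and 14.5 ± 5.42 FPKM, beside 56.8 for H3f3a. Not scaled for their shorter length, their normalized counts were 2.37% to 3.70% and 1.99% to 3.96% of that of H3f3a. Among 15 replication-dependent coding genes compared with other histone coding sequences of the same length, 8 had a copy at 98% identity or more. Hist1h2ag was 99.5% identical to Hist1h2ad, Hist1h2ae 99.2% to the same gene and Hist1h2bc 98.9% to Hist1h2bj. How reads were divided among such copies is not given in the sources used here, so single-gene values of these are uncertain. Exons of 9 replication-dependent and 6 variant genes also overlap another gene model, among them Hist3h2a with Trim17 and H2afy2 with Aifm2, and the kit does not mark strand.

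The design sets embryos given small RNAs of stressed males against those given RNAs of normal males. With limma on log2(normalized count + 1), none of the 32 genes passed an adjusted p of 0.05, and the adjusted p was 0.9997 for each. Across all 12149 genes 0% passed, 1.85% had an unadjusted p under 0.05, and the smallest unadjusted p among histone genes was 0.0840. With edgeR 0% of genes were called, and with DESeq2 0.00823% (1 gene, not a histone gene).

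Higher and lower here refer to the mean of log2 values. Of the 21 replication-dependent genes, 17 had a higher mean in Dep and 4 a lower one, against 48.2% of all genes with a higher mean in Dep. Their median log2 fold was 0.22, beside -0.02 for all genes. All 9 genes with a mean of 100 normalized counts or more were on the higher side, with a median of 0.19, as were 8 of the 12 below it, with a median of 0.40. The counts depended on single embryos. Without Dep 1, 12 of 21 were higher with a median of 0.07, beside 0.02 for all genes, and 5 of the 9. Without Ctl 3, 13 of 21 were higher with a median of 0.10, beside -0.03 for all genes, and 6 of the 9. Weighting libraries by their quality left 13 higher with a median of 0.14, beside -0.005 for all genes. The share of all genes with a higher mean was not counted in these settings. Of the 11 variants, 7 had a higher mean in Dep. The median log2 fold of the variants was 0.03, and it was -0.20 without Dep 1 and 0.28 without Dep 3.

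**Figure D2:**
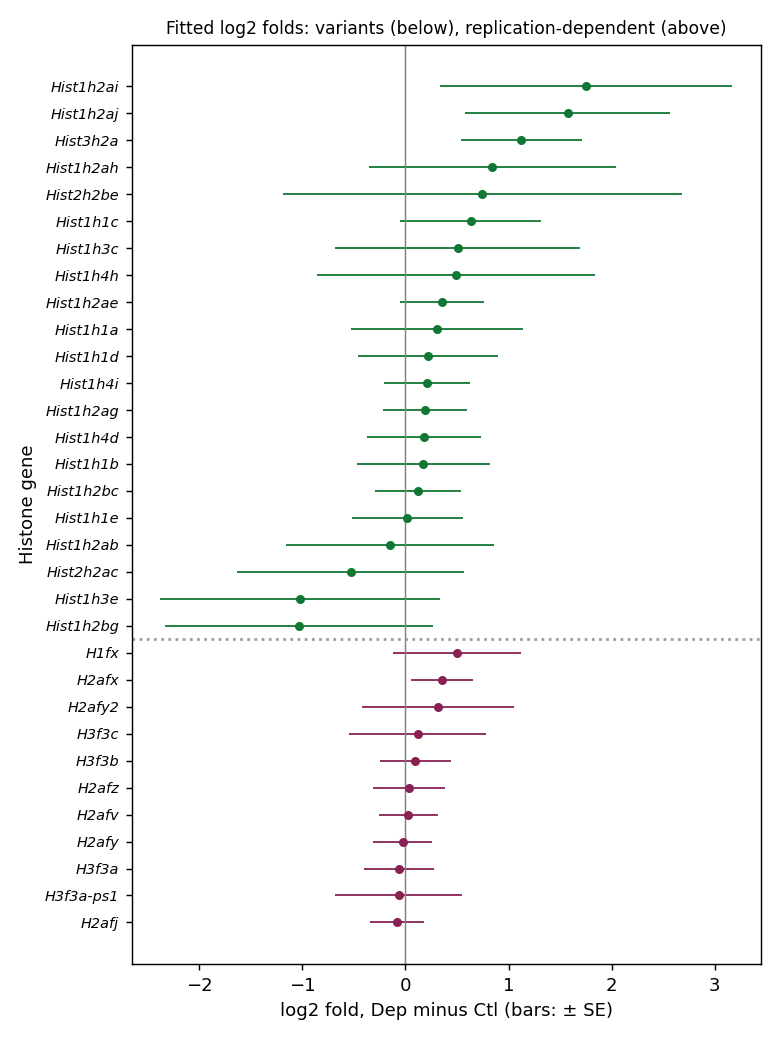
Fitted log2 fold of each histone gene, Dep minus Ctl, with bars of 1 SE, for replication-dependent genes (above the dotted line) and variants (below it). Most replication-dependent points lie right of 0, while the variants centre near it, and no gene passed the adjusted threshold.

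In 2 of the 21 replication-dependent genes, and in none of the variants, every Dep embryo lay above every Ctl embryo, beside 3.09% of all genes. Hist3h2a, an H2A gene outside the large chromosome 13 cluster, had 92.3, 95.2 and 49.4 normalized counts in Ctl 1 to 3, against 124, 211 and 176 in Dep 1 to 3. The log2 fold was 1.12 ± 0.59 (SE), with a 95% interval of -0.18 to 2.43 and an unadjusted limma p of 0.0840. It was 1.33 without Dep 1. The authors' deposited table gave 1.11 with p = 0.0871 and an adjusted p of 0.9999. The pseudogene Hist1h2aj had 11.8, 19.2 and 22.9 in Ctl and 86.2, 57.6 and 31.2 in Dep, a log2 fold of 1.58 ± 0.99 (limma, unadjusted p = 0.143, adjusted p = 0.9997), and 1.24 without Dep 1. Neither passed an unadjusted p of 0.05.

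Other genes on the higher side overlapped between groups. Hist1h2ai stood at 27.2, 28.4 and 0.883 normalized counts in Ctl, and at 61.9, 31.8 and 27.8 in Dep. Its log2 fold of 1.75 ± 1.42 rested on the single read of Ctl 3 and was 0.44 without that embryo. Hist1h1c, a somatic H1, had 260, 367 and 59.1 in Ctl and 220, 455 and 213 in Dep. Ctl 3 was again the lowest embryo. The log2 fold of Hist1h1c was 0.63 ± 0.68 with all embryos and -0.16 without Ctl 3.

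The abundant core histone genes varied more between embryos than between groups. Hist1h2bc had 1896, 1389 and 1295 normalized counts in Ctl, against 1549, 3158 and 899 in Dep, so Dep held both the highest and the lowest embryo (log2 fold 0.12 ± 0.42). Hist1h2ag had 599, 483 and 447 in Ctl against 1021, 399 and 474 in Dep (0.19 ± 0.41). Hist1h2ae had 415, 427 and 275 against 719, 363 and 392 (0.36 ± 0.41). In both H2A genes only Dep 1 stood above all Ctl embryos. Hist1h4d, an H4 gene, had 507, 341 and 414 against 1218, 258 and 331 (0.18 ± 0.55), and the linker gene Hist1h1b had 391, 278 and 134 against 699, 144 and 208 (0.17 ± 0.64). Without Dep 1 the log2 fold was 0.046 for Hist1h2ae, -0.22 for Hist1h2ag, -0.50 for Hist1h4d and -0.49 for Hist1h1b, and without Dep 2 it was -0.35 for Hist1h2bc. Hist1h4i was the steadiest of these genes, with 227, 191 and 248 against 217, 311 and 246 (0.21 ± 0.42).

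**Figure D3:**
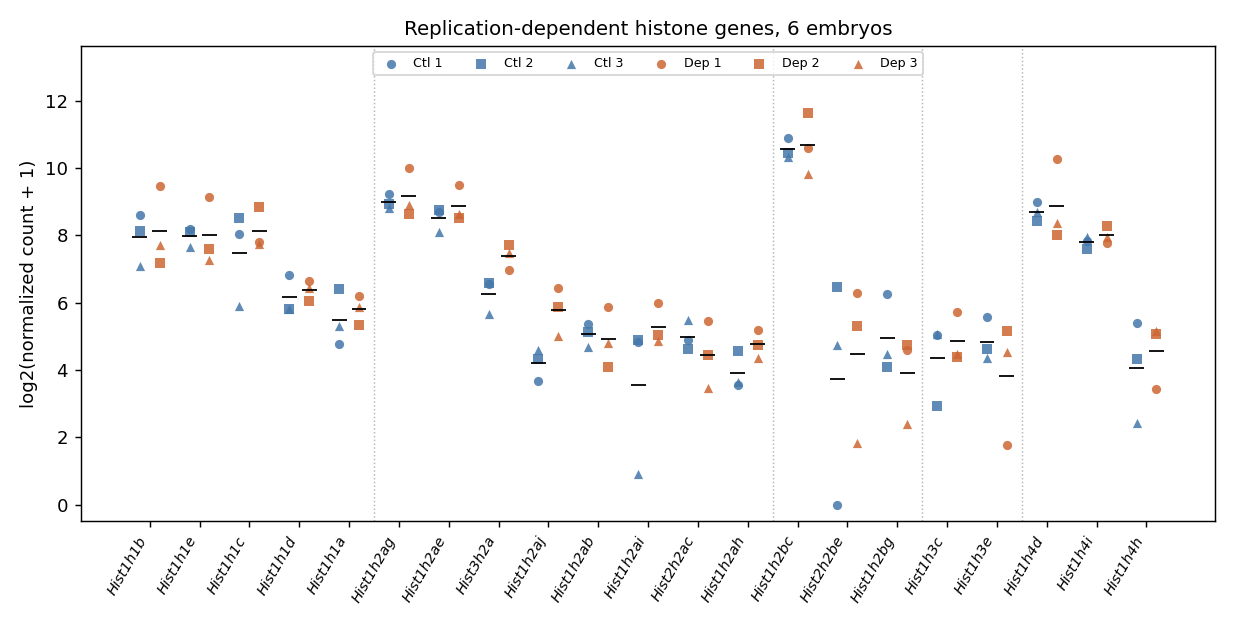
Values of the 21 replication-dependent genes as log2(normalized count + 1), grouped by histone kind, with 1 symbol per embryo and a bar at each group mean. Dep 1 lies above the other 5 embryos for 10 genes, Hist1h4d, Hist1h1b and Hist1h2ag among them, whereas Hist3h2a has all 3 Dep embryos above all 3 Ctl embryos.

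The 4 genes with a lower mean log2 value in Dep had low counts. Hist1h2bg had 75.7, 15.9 and 21.2 normalized counts in Ctl, against 23.1, 25.8 and 4.21 in Dep (log2 fold -1.03 ± 1.30). Hist1h3e had 46.2, 23.4 and 19.4 in Ctl and 2.43, 34.8 and 21.9 in Dep (-1.02 ± 1.36). Its low value was 1 embryo, Dep 1, and without that embryo the log2 fold was -0.00053. Hist2h2ac had a log2 fold of -0.53 ± 1.10 and Hist1h2ab of -0.15 ± 1.01. Hist2h2be was on the higher side (0.75 ± 1.93), with 0, 86.8 and 25.6 in Ctl against 77.7, 38.7 and 2.53 in Dep. It had no read in Ctl 1, where 3 reads would be 3.55 normalized counts. Hist1h1a, Hist1h1d, Hist1h1e, Hist1h2ah, Hist1h3c and Hist1h4h had folds between 0.02 and 0.84 with overlapping groups. Without Dep 1 the fold was -0.55 for Hist1h1e, 0.071 for Hist1h3c and -0.16 for Hist2h2be.

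Replication-dependent genes differed more between embryos than variants did. Their SD of log2 values over the 6 embryos ran from 0.23 to 2.62, with a median of 0.74, beside 0.38 for variants and 0.53 for all genes. Replication-dependent genes had lower counts, with a median of 52.8 normalized counts against 3709 for variants and 476.6 for all genes. In the 9 genes at 100 or more the median SD was 0.66, at a median count of 309. The low-count variants had similar SDs: H1fx 0.66, H3f3c 0.65, H2afy2 0.56 and H3f3a-ps1 0.51. Whether the difference goes with the class or with the count level was not tested.

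Dep 1 was the highest of the 6 embryos in 10 of the 21 replication-dependent genes (47.6%) and 6 of the 11 variants (54.5%), and in 24.3% of all genes. It was at least 1.5 times the median of the other 5 embryos in 14 replication-dependent genes (66.7%), 3 variants (27.3%) and 21.2% of all genes, a limit chosen after the values were seen. The variant H2afz lay just under this limit at 1.49. The median of this ratio was 1.82 for replication-dependent genes, 1.29 for variants and 0.965 for all genes, so variants also tended to be high in Dep 1. The ratio was 3.57 for Hist1h4d, 3.36 for Hist1h1b, 2.81 for Hist1h1e, 2.16 for Hist1h2ag and 1.83 for Hist1h2ae, all on chromosome 13. That chromosome holds 18 of the 21 genes. On chromosome 3 the ratio was 3.04 for Hist2h2be and 1.82 for Hist2h2ac, and on chromosome 11 it was 1.30 for Hist3h2a. Chromosome 13 also held the lowest ratios, 0.296 for Hist1h4h and 0.104 for Hist1h3e. The mean log2 level over the 21 genes was 6.34, 6.36 and 5.80 in Ctl and 6.90, 6.51 and 6.05 in Dep.

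**Figure D4:**
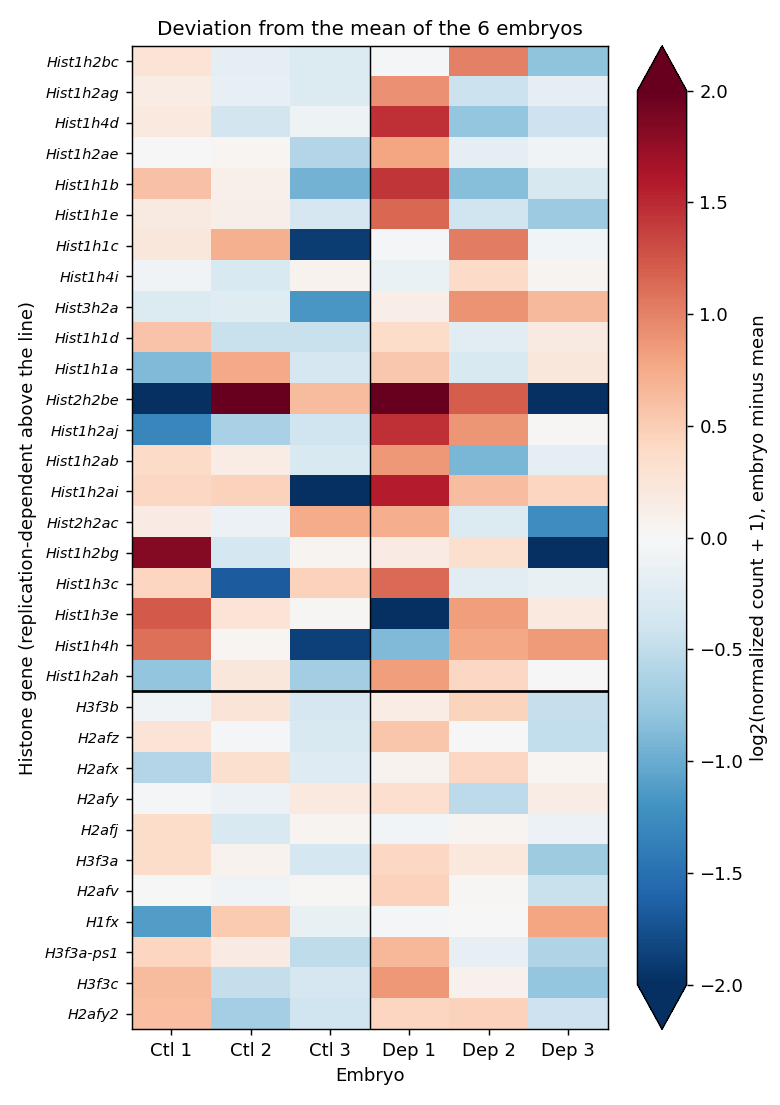
Deviation of each embryo from the mean of the 6 embryos, in log2(normalized count + 1), with replication-dependent genes above the line and variants below it. The Dep 1 column is high for most replication-dependent genes and low for Hist1h3e and Hist1h4h. Dep 3 is the lowest embryo in 6 of the 11 variants (54.5%), beside 15.4% of all genes.

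In Dep 1 the mean log2 level of the epiblast markers was 7.58, beside 9.15 to 9.65 in the other embryos, and that of the primitive endoderm markers 5.65, beside 6.69 to 9.76. That of the trophectoderm markers was 11.67, beside 10.40 to 11.18. Summed normalized counts, which the most abundant markers dominate, were 11949 in Dep 1 and 12501 to 18183 elsewhere for epiblast, 26042 and 20927 to 25330 for primitive endoderm, and 106331 and 42618 to 74219 for trophectoderm. The primitive endoderm sum was thus highest in Dep 1 although the mean log2 level was lowest. Of 25 S phase genes 24 were listed, and their mean log2 level was 10.99 in Dep 1 and 10.76 to 10.95 in the others. Of the markers of other cells, 3 of 12 oocyte genes were listed (summed 3781 in Dep 1 and 839 to 2659 elsewhere, but with a mean log2 level of 5.15 in Dep 1 and 6.36 to 8.24 elsewhere), 1 of 10 cumulus and granulosa genes (34.0 in Dep 1, 59.3 to 199.6 elsewhere) and 1 of 12 male germ line genes (48.6 in Dep 1, 4.17 to 25.3 elsewhere). Their part in the histone values was not tested.

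Among the variants, H2afz had 36494, 29874 and 24658 normalized counts in Ctl, against 44505, 30259 and 21442 in Dep, a log2 fold of 0.03 ± 0.35 with a 95% interval of -0.73 to 0.80. H3f3b had 34263, 42707 and 28408 against 39846, 49002 and 26086 (0.10 ± 0.34). For both genes Dep held the highest and the lowest embryo. H2afx had the smallest p of the variants, with 7745, 14422 and 9634 in Ctl and 12153, 15413 and 11925 in Dep (log2 fold 0.35 ± 0.30, limma unadjusted p = 0.269, adjusted p = 0.9997). Its interval ran from -0.32 to 1.02 and its groups overlapped through Ctl 2.

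H2afv had 3663, 3444 and 3688 normalized counts in Ctl, against 5025, 3681 and 2672 in Dep, so the Ctl embryos agreed closely and the Dep embryos lay on both sides of them (log2 fold 0.03 ± 0.28). H2afj, an H2A variant, had 5154, 3210 and 4149 against 3830, 4119 and 3661 (-0.08 ± 0.26), here with the wider spread in Ctl. H3f3a had 4635, 3733 and 2811 against 4754, 4150 and 2173 (-0.06 ± 0.34). The macroH2A genes were H2afy, with a log2 fold of -0.03 ± 0.29, and the much lower H2afy2, with 0.32 ± 0.74. H1fx, a linker variant, had 55.6, 176 and 110 against 120, 122 and 212 (0.50 ± 0.62). The pseudogenes H3f3a-ps1 and H3f3c had folds of -0.07 ± 0.61 and 0.12 ± 0.67.

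**Figure D5:**
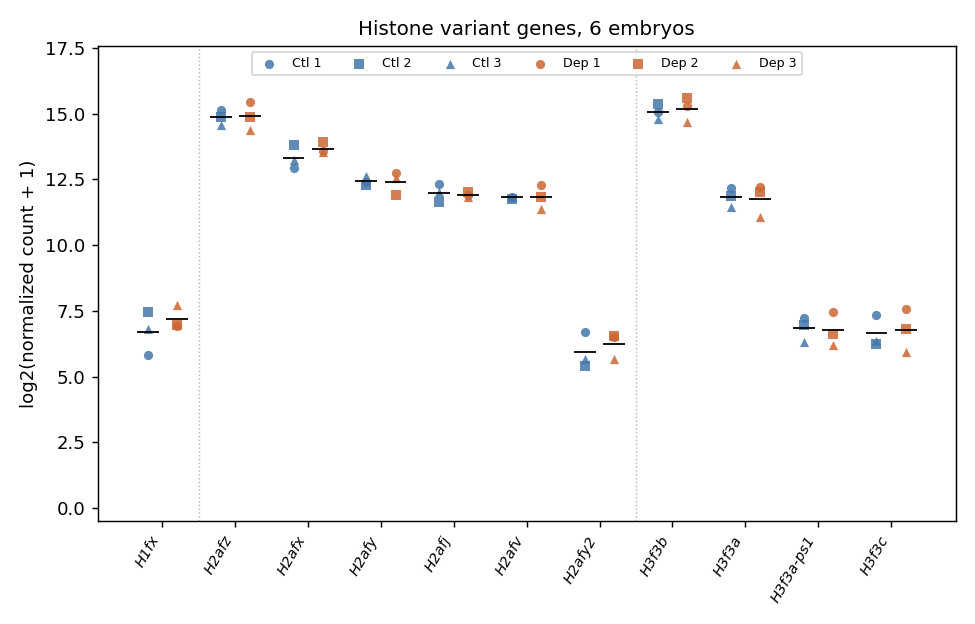
Values of the 11 variant genes as log2(normalized count + 1), grouped by histone kind, with 1 symbol per embryo and a bar at each group mean. The embryos of the groups overlap in all 11 genes, and H2afz and H3f3b are the most abundant.

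The genes that make and handle histone mRNA and protein were described from 2 lists without shared members. Of 28 genes for histone mRNA synthesis, processing and decay, all were listed, 14 had a higher and 14 a lower mean in Dep, 0 had an unadjusted p under 0.05 and the median log2 fold was -0.004. Slbp, which encodes the protein that binds the stem-loop, had 3812, 5025 and 2469 normalized counts in Ctl, against 5999, 3053 and 2478 in Dep (log2 fold -0.02 ± 0.38). Like many replication-dependent genes it was highest in Dep 1. Npat, the coactivator of the histone clusters, had 1137, 896 and 777 against 966, 906 and 964 (0.03 ± 0.29). The 4 genes of smallest p were Cstf2, a cleavage factor subunit (0.39 ± 0.30), Yy1 (-0.34 ± 0.27), Hinfp, which activates H4 genes (-0.60 ± 0.50), and Casp8ap2 (-0.26 ± 0.28).

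Of 44 chaperone and deposition genes 43 were listed, 15 with a higher and 28 with a lower mean in Dep, beside 48.2% of all genes higher, and a median log2 fold of -0.07. An unadjusted p under 0.05 was found for 2 of them, beside 1.85% of all genes, and neither passed adjustment. Spty2d1, an H3-H4 chaperone gene, had 1010, 840 and 883 normalized counts in Ctl, against 501, 567 and 585 in Dep, so all Dep embryos lay below all Ctl embryos, beside 3.8% of all genes (log2 fold -0.72 ± 0.29, limma unadjusted p = 0.0329, adjusted p = 0.9997). Asf1b, which carries H3-H4 to replicating DNA, had 834, 1192 and 718 against 1837, 1579 and 1131 (0.73 ± 0.32, limma unadjusted p = 0.0433, adjusted p = 0.9997), with Dep 3 just under Ctl 2. Supt6 (0.34 ± 0.27) and Ep400 (-0.48 ± 0.38, and -0.056 without Dep 1) followed. Hira, which deposits the replication-independent H3, had a log2 fold of -0.16 ± 0.47. Cenpa, the centromeric H3 variant, had 7751, 6931 and 9917 against 11667, 5946 and 6827 (-0.06 ± 0.31), with Dep 1 highest.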

How the data were processed

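RNA of 6 single blastocysts, 3 per group, was measured with a kit that does not mark strand. HISAT2, Cufflinks 2.2.1 and mm10 appear in the submitters' processing notes. How reads were counted, and on which annotation, is not given in the sources used here. Signal values in the deposited table are, per their steps, read counts divided by 1 size factor per library, here called normalized counts. Whole reads came back for 100% of values within 0.01; for Dep 2 the size factor is so close to 1 that this rests on its likeness to the other columns. Per the file headers the authors also gave a score for each gene's test, with its p-value, adjusted p-value and log2 fold change. The lowest mean listed was 14.2, so lower genes were left out before deposit, and members had to pass that filter.

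Names, positions, transcripts and exon lengths came from GENCODE M21 by Ensembl identifier (11829 matched, 320 did not), and promoters from RefSeq on GRCm38.p6. The main test was limma 3.58.1 with a mean-variance trend on log2(normalized count + 1), which understates changes of low genes, with Benjamini-Hochberg adjustment over 12149 genes and a threshold of 0.05. Wilson intervals are at 95% and cover counting error only, as reads carry no molecular identifiers. Alternatives were pseudocounts of 0.1 and 10, TMM and quantile scaling, a minimum mean of 100, edgeR 4.0.16 and DESeq2 1.42.0 on recovered reads, a replicate block, library weights and each embryo left out. Fits were tested on simulated data.

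The members and lists were chosen with earlier results of these data known. All listed variants were named. At least a log2 fold and its SE were given for the replication-dependent genes of the 6 highest mean FPKM. The same was given for up to 4 replication-dependent genes of smallest p in each direction. From the pathway lists it was given for Slbp, Npat, Hira, Cenpa and up to 4 genes of smallest p in each. Values per embryo were printed for a part of these genes only. Embryos with the same number deviated together from their group means (r = 0.133, 0.151 and 0.129 across genes). Each r is over 0.1, so the replicate block fitted same-numbered embryos as pairs. The main test and the other alternatives did not pair embryos. The labels state no pairing, and correlations of this size do not establish it. A chi-square test of reads found no duplicate libraries.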

Additional observations from a re-analysis of the deposited data

How the results depend on the processing

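No histone gene passed the adjusted threshold in any setting run. DESeq2 called 1 gene of all tested and the other settings 0. The median log2 fold of replication-dependent genes stayed above 0 in every setting, from 0.07 (without Dep 1) to 0.39 (without Dep 3). The median of all genes ran from -0.035 (without Ctl 1) to 0.036 (edgeR), and was 0.02 without Dep 1. With 1 embryo left out in turn, that of variants ranged from -0.20 to 0.28 and that of the processing and chaperone genes from -0.10 to 0.021. The replicate block, which fits same-numbered embryos as pairs, left the medians at 0.22 and 0.03 and called 0 genes, with 420 unadjusted p-values under 0.05 in place of 225, and it changed no call. Of 44 named genes, 23 changed sign in at least 1 setting. Quantile normalization gave -0.029 for H2afv, -0.082 for H2afz and -0.0011 for Hist1h1e. Library weights, in which Dep 1 weighed 0.314, gave -0.055 for H2afv, -0.061 for H2afz, -0.30 for Hist1h1b, -0.31 for Hist1h1e, -0.087 for Hist1h2ag and -0.27 for Hist1h4d. edgeR and DESeq2 gave 0.013 and 0.012 for H2afy, 0.0068 and 0.0087 for Hist1h2ab, and 0.028 and 0.028 for Slbp. The log2 folds with each embryo left out in turn ran as follows: Cenpa -0.35 to 0.14, H2afj -0.26 to 0.083, H2afv -0.20 to 0.26, H2afy -0.20 to 0.23, H2afz -0.23 to 0.29, H3f3a-ps1 -0.42 to 0.22, H3f3a -0.28 to 0.28, H3f3b -0.10 to 0.35, H3f3c -0.28 to 0.54, Hira -0.46 to 0.30, Hist1h1a -0.060 to 0.76. For the others they ran: Hist1h1b -0.49 to 0.64, Hist1h1c -0.16 to 1.15, Hist1h1e -0.55 to 0.39, Hist1h2ab -0.62 to 0.27, Hist1h2ag -0.22 to 0.46, Hist1h2bc -0.35 to 0.55, Hist1h3c -0.20 to 0.87, Hist1h4d -0.50 to 0.61, Hist1h4h -0.32 to 1.16, Hist2h2be -1.12 to 2.11, Npat -0.10 to 0.18, Slbp -0.39 to 0.24. The cause was not tested. With 3 embryos a group, log2 folds of the members carried SEs from 0.26 to 1.93, so small differences were not detectable.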
